A study of Mus musculus with 8 samples.

Results

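Suppressor effector genes are the enzymes, cytokines and alarmins through which myeloid cells restrain T cells in tumours. 10 such genes were chosen by name from the 55450 genes of the count table: Arg1, Arg2, Nos2, Ido1, Il10, Tgfb1, Ptgs2, S100a8, S100a9 and Il4i1. All 10 were in the table, and 8 of them passed the filter on low counts that left 16662 genes for testing. Levels were measured by RNA sequencing of cells that magnetic beads against c-Kit had pulled from dissociated B16F10 tumours. The B16F10 line comes from a pigmented melanoma of C57BL6 mice. The receptor c-Kit binds stem cell factor and is found on haematopoietic precursors, on mast cells and on melanocytes. Wild-type C57BL6 mice aged 6 weeks were injected subcutaneously with 150000 tumour cells, and the tumours were collected on day 17. The injected cells were either scramble control B16F10 (4 libraries, numbered 2 to 5) or PERK KO B16F10 (4 libraries, numbered 1 to 4). PERK senses unfolded proteins in the endoplasmic reticulum and phosphorylates eIF2alpha, which lowers translation, and only the injected cells were altered: the hosts of both groups were wild-type. The labels do not state whether each line was 1 clone or whether the tumours grew in separate mice, so p-values measure the spread between these libraries.

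The members act by different routes. Arginases and the inducible nitric oxide synthase compete for arginine, which T cells need to proliferate. IDO1 and IL4I1 break down tryptophan and other aromatic amino acids and leave products that act on the aryl hydrocarbon receptor. IL-10 and TGF-beta are secreted inhibitory cytokines, cyclooxygenase-2 feeds the synthesis of prostaglandin E2, and S100A8 with S100A9 form calprotectin, an alarmin of neutrophils and monocytes. None of these genes is restricted to myeloid cells: Tgfb1 in particular is transcribed by many cell types.

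Total counts ran from 44950033 to 56697163 in scramble and from 29006949 to 47530393 in PERK KO libraries, and 3 counts corresponded to between 0.0515 and 0.1 CPM (counts divided by the TMM-adjusted library size). That floor covers counting error only. Eif2ak3, the gene of PERK, fell from 54.3 ± 4.66 CPM to 13.8 ± 7.05 CPM (SD, n = 4 each, edgeR adjusted p = 0.00371). Kit, the gene of the receptor used for enrichment, had 196 ± 23.7 CPM in scramble and 175 ± 37.7 CPM in PERK KO libraries and was not called (edgeR adjusted p = 0.559). The c-Kit fraction was not pure precursors: 12 melanocyte lineage markers summed to between 25200 and 25900 CPM in scramble and between 16800 and 20400 CPM in PERK KO libraries, and 8 of them were called lower. 12 myeloid markers summed to between 378 and 464 CPM in scramble and between 595 and 1440 CPM in PERK KO libraries. Of these myeloid markers 11 were called higher, with ratios of group means from 3.56 (Itgam) to 8.19 (Mpeg1). Sirpa, which made up most of the scramble sum, was called lower, with 312 ± 7.27 CPM in scramble and 252 ± 26.7 CPM in PERK KO libraries, so the sums understate the change of the other 11.

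5 of the 10 members were higher in PERK KO than in scramble libraries: Arg1, Ido1, Tgfb1, Ptgs2 and Il4i1 (edgeR quasi-likelihood test, Benjamini-Hochberg adjusted p under 0.05 over all genes tested). All 8 tested members had a log2 change above 0 in edgeR, so none was lower at an unadjusted p either, and DESeq2 and limma-voom called the same 5 higher and none lower. Over all genes tested, 13.8% were called, 7.66% as higher and 6.13% as lower. The groups did not overlap at 4 members, Arg1, Ido1, Tgfb1 and Il4i1, all higher in PERK KO. Among all genes tested 21.3% had groups that did not overlap, and 10.2% did so with PERK KO higher. Arg2, Nos2 and S100a8 did not pass the test, and Il10 and S100a9 were too low to enter it.

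Ptgs2 and Tgfb1 are shown with the 250 bases before their start sites, since both were called higher and their windows held a searched motif. The windows are RefSeq's for GRCm38.p6 (the mm10 build), written 5′ to 3′ on the gene's strand, with the matched bases in capitals.
Ptgs2, chr1:150099781-150100030, plus strand: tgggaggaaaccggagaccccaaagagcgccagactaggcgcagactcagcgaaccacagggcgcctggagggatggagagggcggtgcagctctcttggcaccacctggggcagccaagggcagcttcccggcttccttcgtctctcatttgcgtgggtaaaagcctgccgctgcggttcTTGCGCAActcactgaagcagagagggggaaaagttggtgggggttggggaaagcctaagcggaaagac
Tgfb1, chr7:25686752-25687001, plus strand: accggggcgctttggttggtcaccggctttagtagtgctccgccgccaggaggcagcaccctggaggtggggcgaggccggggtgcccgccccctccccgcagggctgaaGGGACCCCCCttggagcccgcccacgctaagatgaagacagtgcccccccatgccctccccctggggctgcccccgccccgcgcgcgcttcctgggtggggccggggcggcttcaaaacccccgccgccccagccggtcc
The capitals in the Ptgs2 window mark a C/EBP match (TTNNGCAA), 69 to 62 bases before the start, which reads as a match on both strands. The capitals in the Tgfb1 window mark a match to the NF-kB consensus, 140 to 131 bases before the start, also on both strands. RefSeq windows were matched for 5 of the 10 members, Il4i1, Ptgs2, S100a8, S100a9 and Tgfb1. 6 motifs were searched on both strands, and no match of one overlapped a match of another in these windows. S100a8 held TATAAA at 30 to 25 bases before its start, S100a9 held a C/EBP match at 236 to 229 bases, and Il4i1 held none of the 6. Of 32851 promoter windows of this length, 9.56% held the C/EBP motif, 7.25% the NF-kB consensus, 12.4% TATAAA, 6.47% the cyclic AMP element ACGTCA, 7.02% the STAT element TTCNNNGAA and 2.98% the interferon-stimulated response element. A match is a run of letters and not a shown binding site.

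**Figure D1:**
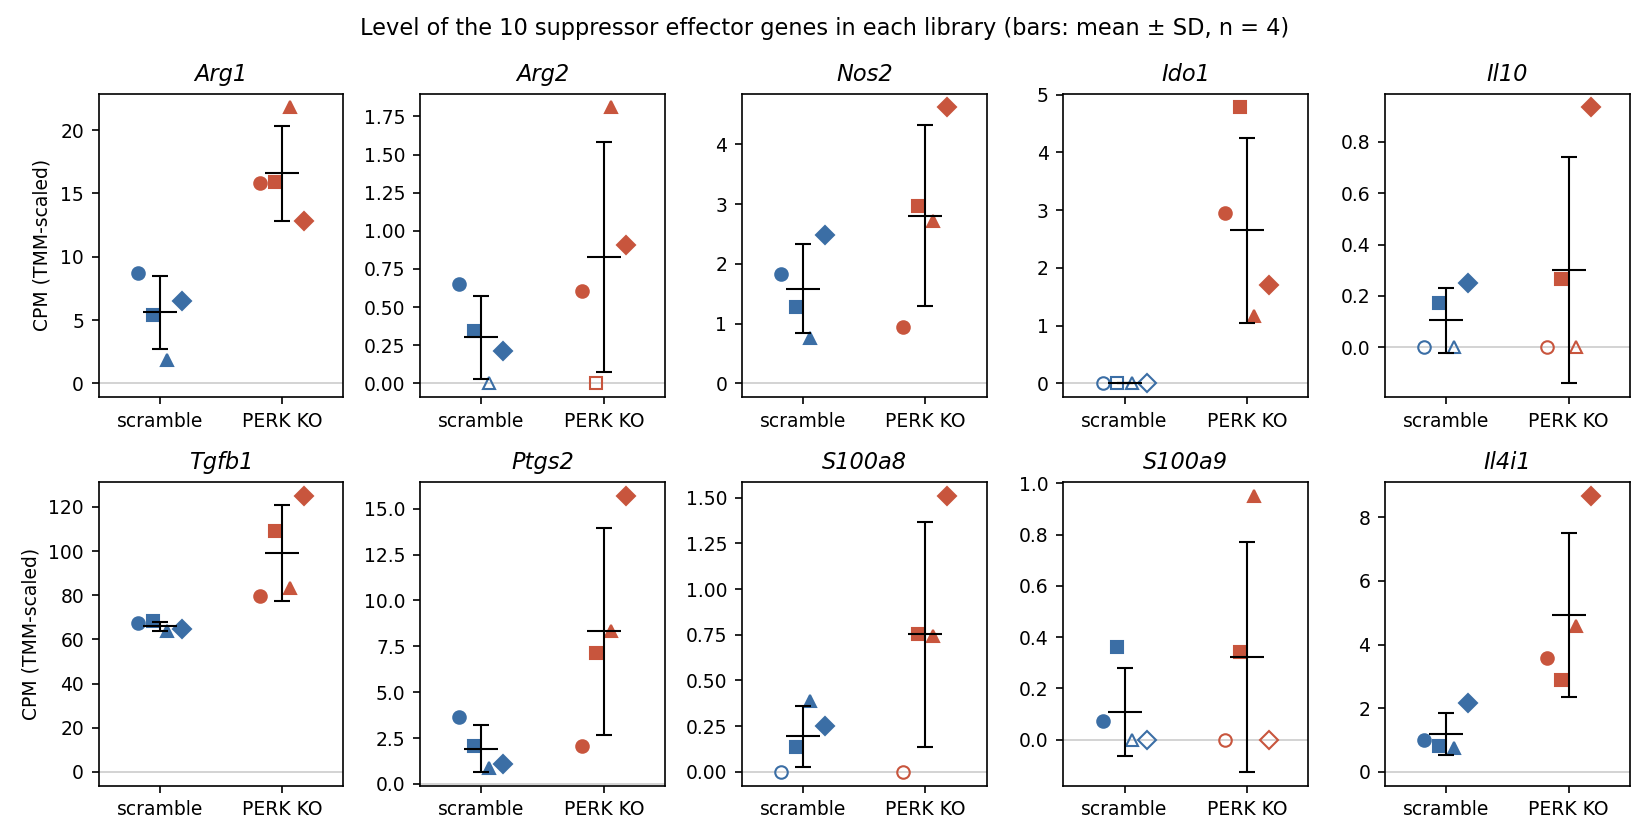
Level of each member in CPM (vertical axis, linear, its own scale per gene) in 4 scramble (blue) and 4 PERK KO (red) libraries. Circle, square, triangle and diamond are libraries 2 to 5 of scramble and 1 to 4 of PERK KO, open symbols have no count, and bars are the mean ± SD. The groups do not overlap for Arg1, Ido1, Tgfb1 and Il4i1, and PERK KO library 1 lies among the scramble libraries for Ptgs2.

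Arg1, the cytosolic arginase that splits arginine into ornithine and urea (ENSMUSG00000019987.9, chromosome 10, 24915221 to 24927484, minus strand), was higher in every PERK KO library. It had 8.72, 5.41, 1.82 and 6.5 CPM in scramble libraries 2 to 5 and 15.8, 15.9, 21.8 and 12.8 CPM in PERK KO libraries 1 to 4. The lowest PERK KO library stood above the highest scramble library, and scramble library 4 was well below the other scramble libraries. The log2 change was 1.56 (SE 0.376, edgeR adjusted p = 0.0186). Without scramble library 3 the adjusted p was 0.0654 in edgeR, and Arg1 stayed called when any other library was left out.

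Arg2, the mitochondrial arginase (chromosome 12, 79130777 to 79156301, plus strand), was near the limit of detection. It had 36, 20, 0 and 11 counts in scramble libraries 2 to 5 and 18, 0, 78 and 35 counts in PERK KO libraries 1 to 4. Each group had 1 library without a count, and the groups overlapped. The log2 change of 1.45 did not pass the test (95% interval -2.18 to 5.08, edgeR adjusted p = 0.619). Of its exon bases, 19.96% overlap Vti1b and 8.12% overlap Gm48780, both on the opposite strand.

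Nos2, the inducible nitric oxide synthase that turns arginine into nitric oxide (chromosome 11, 78920787 to 78960254, plus strand), had 1.83, 1.27, 0.758 and 2.49 CPM in scramble libraries 2 to 5. PERK KO libraries 1 to 4 had 0.937, 2.97, 2.71 and 4.62 CPM. 3 PERK KO libraries exceeded every scramble library, while PERK KO library 1 lay among them. The log2 change of 0.83 did not pass the test (95% interval -0.57 to 2.22, edgeR adjusted p = 0.414). Per kilobase of exon, Arg1 exceeded Nos2 in every library, 4.75- to 9.45-fold in scramble and 5.47- to 33.4-fold in PERK KO libraries, and these ranges overlap.

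Around these enzymes, 15 of 18 genes of arginine transport and use were tested, and 3 were called higher and 4 lower. Over all genes tested, 7.66% were called higher and 6.13% lower. The median log2 change of the list was 0.10, against -0.02 over all genes tested. Ass1, argininosuccinate synthase, which rebuilds arginine from citrulline, rose from 9.6 ± 1.43 to 36 ± 12.4 CPM (edgeR adjusted p = 0.000813). The other genes called higher were Slc7a2, a cationic amino acid transporter (0.281 ± 0.276 to 4.16 ± 1.75 CPM, edgeR adjusted p = 0.00657), and Ddah1, which degrades methylated arginines that inhibit nitric oxide synthases (49.4 ± 3.82 to 80.3 ± 17.4 CPM). Both of these were named after their values were seen.
The lower genes included steps downstream of arginase. Oat, which converts ornithine towards proline and glutamate, fell from 237 ± 3.29 to 153 ± 10.5 CPM (edgeR adjusted p = 0.000798). Sms, spermine synthase, fell from 34 ± 2.24 to 17.9 ± 3.17 CPM, and Ddah2, a relative of Ddah1, from 6.45 ± 0.836 to 1.59 ± 0.706 CPM. Asl, argininosuccinate lyase, the fourth gene called lower and also named after its value was seen, had 68.2 ± 7.89 CPM in scramble and 51 ± 7.48 CPM in PERK KO libraries. Its call (edgeR adjusted p = 0.043) was lost in 7 of 8 fits that left out 1 library, at adjusted p from 0.0677 to 0.129, and was kept only without PERK KO library 1. It was also lost with limma-voom (0.0514), RLE factors (0.0639), upper-quartile factors (0.0722) and the stricter filter (0.0534). Ass1 and Asl, consecutive steps of one route, thus had opposite signs.

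Ido1, indoleamine 2,3-dioxygenase, the interferon-induced enzyme that starts tryptophan breakdown (chromosome 8, 24584136 to 24597009, minus strand), had no count in any scramble library. PERK KO libraries 1 to 4 held 88, 196, 50 and 66 counts, or 2.95, 4.78, 1.16 and 1.71 CPM. Against a floor of 3 counts pooled over the scramble group (0.0142 CPM), the mean PERK KO level of Ido1 was 187-fold higher (edgeR adjusted p = 0.0022). This ratio allows for counting error only and is no minimum, since the floor of any 1 scramble library is higher. Ido1 passed the filter only through the PERK KO libraries. It stayed called when each library was left out in turn (largest edgeR adjusted p = 0.00833). Those fits share that selection and most libraries, so they are not separate support.

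Its neighbour Ido2, a related dioxygenase of much weaker activity (chromosome 8, 24531892 to 24576333, minus strand), had the opposite distribution. Scramble libraries 2 to 5 held 17, 68, 39 and 105 counts, or 0.308, 1.17, 0.844 and 2.03 CPM, and no PERK KO library held any. With a floor of 3 counts pooled over the PERK KO group (0.0197 CPM), the mean scramble level of Ido2 was 55.5-fold higher (edgeR adjusted p = 0.0135). The same limit holds for this ratio. Ido2 passed the filter only through the scramble libraries, a selection that its call shares. The call was lost without scramble library 3 (edgeR adjusted p = 0.0544) or library 5 (0.0607), and with limma-voom (0.0692). So all 4 scramble libraries had counts of Ido2 and none of Ido1, and all 4 PERK KO libraries the reverse. Both genes were low where counted, and most PERK KO libraries were shallower. No count therefore does not show that a transcript was absent.

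Kmo, kynurenine 3-monooxygenase, which acts further along the same route, had 0.85, 0.24, 0.0649 and 0.135 CPM in scramble libraries 2 to 5 and 2.01, 4.56, 1.92 and 8.46 CPM in PERK KO libraries 1 to 4. The groups did not overlap, and the log2 change was 3.70 (SE 0.837, edgeR adjusted p = 0.0141, 0.0544 without scramble library 3). Of 19 other genes of tryptophan and aromatic amino acid catabolism, 15 were tested, with a median log2 change of 0.01. The members Ido1 and Il4i1, both called higher, are not among them. Kmo and Ido2 were the only ones called, and over all genes tested 13.8% were called. Tdo2, the liver-type tryptophan dioxygenase, Aadat and Qprt had no count in any library.

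Il4i1, a secreted oxidase of phenylalanine and tryptophan (chromosome 7, 44816387 to 44840809, plus strand), had 0.995, 0.807, 0.758 and 2.17 CPM in scramble libraries 2 to 5. PERK KO libraries 1 to 4 had 3.58, 2.9, 4.57 and 8.67 CPM. The groups did not overlap, with library 5 highest in scramble and library 4 highest in PERK KO. The log2 change was 2.06 (SE 0.502, edgeR adjusted p = 0.0196). The call was lost without scramble library 2 (edgeR adjusted p = 0.0632), 3 (0.0714) or 4 (0.0599) or PERK KO library 4 (0.0573).
Of the exon bases of Il4i1, 83.9% overlap Tbc1d17 on the opposite strand, 2.01% overlap Atf5 on that strand, and 2.38% overlap Nup62 on its own. The libraries were strand-specific, but the strand setting of the counting is not given in the sources used here. The printed counts, CPM, level per kilobase and fold change of Il4i1 depend on that setting. Tbc1d17 had 16.4 ± 2.11 CPM in scramble and 12.3 ± 2.64 CPM in PERK KO libraries, opposite in sign to Il4i1 (log2 change -0.41, SE 0.181, edgeR adjusted p = 0.175).

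**Figure D2:**
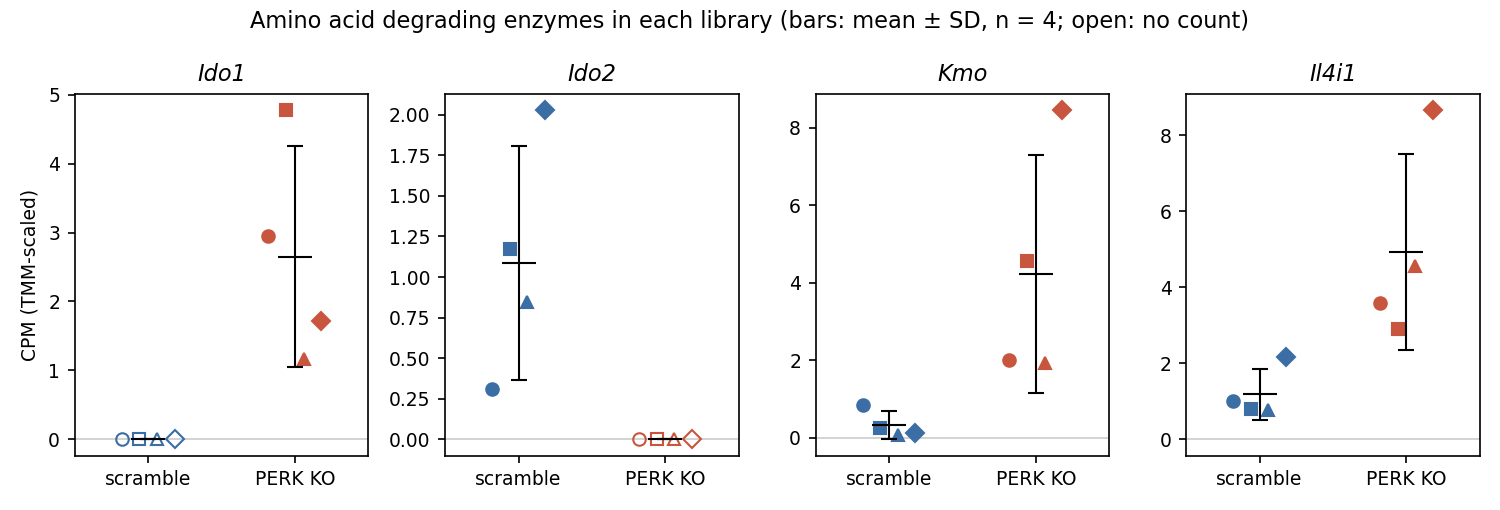
CPM (vertical axis, linear, its own scale per gene) of 4 enzymes of tryptophan and aromatic amino acid breakdown in each library, with symbols by library as in the plot of all members and bars for the mean ± SD (n = 4). Ido1 is at 0 in all 4 scramble libraries and Ido2 in all 4 PERK KO libraries, while Kmo and Il4i1 are detected in all 8.

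Il10, the inhibitory cytokine of macrophages and regulatory lymphocytes (chromosome 1, 131019845 to 131024974, plus strand), was too low to be tested with the filter. It had 0, 10, 0 and 13 counts in scramble libraries 2 to 5 and 0, 11, 0 and 36 counts in PERK KO libraries 1 to 4. The same number of libraries had no count in each group. Without the filter its log2 change was 1.47 (SE 2.17, edgeR adjusted p = 0.736), and it was -0.24 without PERK KO library 4. Its receptor differed between its chains: Il10ra, the ligand-binding chain found on leukocytes, rose from 1.36 ± 0.458 to 13.8 ± 8.79 CPM (edgeR adjusted p = 0.00113). Il10rb, the chain shared with other cytokines and expressed widely, fell from 107 ± 8.28 to 76.6 ± 9.27 CPM (edgeR adjusted p = 0.0118). Il1rn, the interleukin-1 receptor antagonist, rose from 3.18 ± 0.971 to 20.9 ± 13.6 CPM (edgeR adjusted p = 0.00662). These were the 2 genes called higher and 1 called lower among 10 of IL-10 reception and relay, all tested. The list had a median log2 change of 0.57. Shares called over all genes tested were 7.66% higher and 6.13% lower.

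Tgfb1, which encodes the TGF-beta 1 precursor (chromosome 7, 25687002 to 25705077, plus strand), had 67.2, 68.2, 63.8 and 64.8 CPM in scramble libraries 2 to 5. PERK KO libraries 1 to 4 had 79.5, 109, 83.2 and 125 CPM. The scramble libraries lay close together, every PERK KO library was above them, and the spread was wider in PERK KO. The log2 change was 0.59 (SE 0.135, edgeR adjusted p = 0.0151), the smallest of the 5 called. It stayed called when each library was left out, with a largest edgeR adjusted p of 0.0496.
Of 26 genes for TGF-beta ligands, activation, receptors and SMADs, 25 were tested, and 5 were called higher and 2 lower. The median log2 change of the list was 0.36. Among all genes tested, 7.66% were called higher and 6.13% lower. Ltbp1, which tethers latent TGF-beta to the matrix, rose from 1.69 ± 0.329 to 9.52 ± 4.62 CPM (edgeR adjusted p = 0.00366). Itgav, the alpha chain of integrins that release active TGF-beta, fell from 501 ± 23.2 to 336 ± 25.5 CPM (edgeR adjusted p = 0.00172). Skil, a repressor of SMAD transcription, rose from 46.6 ± 2.18 to 71.3 ± 13.6 CPM (edgeR adjusted p = 0.0107).
Nrros, which holds latent TGF-beta on myeloid cells and microglia, had 7.08 ± 0.63 CPM in scramble and 14.8 ± 6.08 CPM in PERK KO libraries (edgeR adjusted p = 0.0218). That call was lost without any 1 of scramble libraries 2, 3, 4 and 5 (edgeR adjusted p = 0.0626, 0.0653, 0.051 and 0.07). Tgfb3, another ligand, and Smad7, an inhibitory SMAD, were called higher and Smurf2, a ubiquitin ligase of the route, lower. These 3, named after their values were seen, were lost in 6, 5 and 5 of 8 fits without 1 library. Smurf2 was also lost with RLE (edgeR adjusted p = 0.0548) and upper-quartile factors (0.0852), and Smad7 with library totals alone (0.0559).

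Ptgs2, cyclooxygenase-2, the inducible enzyme at the head of prostaglandin synthesis (chromosome 1, 150100031 to 150108227, plus strand), had 3.65, 2.08, 0.888 and 1.08 CPM in scramble libraries 2 to 5. PERK KO libraries 1 to 4 had 2.08, 7.12, 8.35 and 15.7 CPM. PERK KO library 1 lay within the scramble range and the other 3 lay above it, so the groups overlapped. The log2 change was 2.11 (SE 0.594, edgeR adjusted p = 0.0359). The call was lost without scramble library 3 (edgeR adjusted p = 0.0978), 4 (0.095) or 5 (0.104), or without PERK KO library 2 (0.0612), 3 (0.0613) or 4 (0.102).
Of 19 genes of prostaglandin E2 synthesis, breakdown and reception, 15 were tested, and 6 were called higher and 4 lower. The shares over all genes tested were 7.66% and 6.13%. The median log2 change of the list was 0.16. Ptges, also a prostaglandin E synthase and named after the tests were seen, did not pass the filter. Ptger4, a prostaglandin E2 receptor of leukocytes, rose from 0.651 ± 0.482 to 7.93 ± 5.44 CPM (edgeR adjusted p = 0.00405), and Slco2a1, the prostaglandin uptake transporter, from 1.27 ± 0.508 to 7.78 ± 4.08 CPM (edgeR adjusted p = 0.00595). Hpgd, which inactivates prostaglandins, and Alox5, Alox5ap and Tbxas1, which make leukotrienes and thromboxane, were the other genes called higher.
Ptgds, the prostaglandin D synthase that melanocytes also express, fell from 614 ± 56.5 to 416 ± 50.1 CPM (edgeR adjusted p = 0.00587). Ptges3, a widely expressed prostaglandin E synthase and co-chaperone, fell from 131 ± 12.6 to 96.6 ± 5.96 CPM (edgeR adjusted p = 0.0099). Ptges2 and Abcc4, another prostaglandin E synthase and an efflux pump, were the other 2 called lower. The 6 genes called here without printed levels were named after their values were seen. Hpgd and Ptges2 lost the call in 4 of 8 fits without 1 library, Alox5, Alox5ap and Tbxas1 in 5, and Abcc4 in 7. Abcc4 also lost it with limma-voom, RLE, upper-quartile and total-count scaling, the stricter filter and the fit that is not robust (adjusted p from 0.0512 to 0.0989), and Alox5ap with limma-voom (0.073) and without a filter (0.126).

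S100a8, the lighter calprotectin subunit (chromosome 3, 90668978 to 90670035, plus strand), had 0, 8, 18 and 13 counts in scramble libraries 2 to 5 and 0, 31, 32 and 58 counts in PERK KO libraries 1 to 4. Each group had 1 library without a count, and the other 3 PERK KO libraries stood above all scramble libraries. The log2 change of 1.94 did not pass the test (95% interval -1.73 to 5.61, edgeR adjusted p = 0.476).
S100a9, its partner subunit (chromosome 3, 90692632 to 90695721, minus strand), was not tested with the filter. It had 4, 21, 0 and 0 counts in scramble libraries 2 to 5 and 0, 14, 41 and 0 counts in PERK KO libraries 1 to 4. The subunits did not run together: PERK KO library 4 held 58 counts of S100a8 and none of S100a9. Without the filter the log2 change of S100a9 was 1.54 (SE 2.16, edgeR adjusted p = 0.717). Counts this low often included a 0: of genes tested whose group mean was 5 to 20 counts, 50.3% in scramble and 83.7% in PERK KO had at least 1 library without a count.
12 neutrophil markers, the cells that carry most calprotectin, summed to between 0.476 and 2.52 CPM in scramble and between 2.34 and 12.4 CPM in PERK KO libraries. Only 3 of them could be tested, 1 was called higher, and Ly6g, Mpo, Camp, Ngp and Stfa2 had no count in any library. Of 15 related S100 genes and receptors, 13 were tested, with a median log2 change of 0.60, and 10 were not called. The other 3 were called higher, against 7.66% over all genes tested. These were Cd14, a lipopolysaccharide co-receptor and also one of the myeloid markers (2.63 ± 0.735 to 14 ± 5.68 CPM, edgeR adjusted p = 0.00166), S100a11 (179 ± 34.5 to 578 ± 242 CPM, 0.00997) and S100a6 (3.71 ± 2.13 to 19.2 ± 6.75 CPM, 0.0125). S100a6 was lost without scramble library 3 (edgeR adjusted p = 0.0555).

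Of 20 regulators of these effector genes, all tested, 5 were called higher and 1 lower, with a median log2 change of 0.30. Over all genes tested the shares were 7.66% higher and 6.13% lower. Spi1, the PU.1 factor of myeloid cells, rose from 4.74 ± 1.66 to 37.5 ± 28.9 CPM (edgeR adjusted p = 0.00886). Cebpb and Cebpd, C/EBP factors of inflammatory myeloid gene expression, rose from 4.6 ± 1.02 to 15.5 ± 9.12 CPM (edgeR adjusted p = 0.00897) and from 3.63 ± 0.642 to 9.14 ± 2.74 CPM (0.0103). Irf1 and Irf8, interferon regulatory factors named after their values were seen, were also called higher, and the calls were lost in 4 and 2 of 8 fits without 1 library. Irf1 was also lost with library totals alone (edgeR adjusted p = 0.0578). Hif1a, the hypoxia-inducible factor subunit, which can drive Arg1 and Nos2, fell from 369 ± 8.39 to 270 ± 26.8 CPM (edgeR adjusted p = 0.00678).

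**Figure D3:**
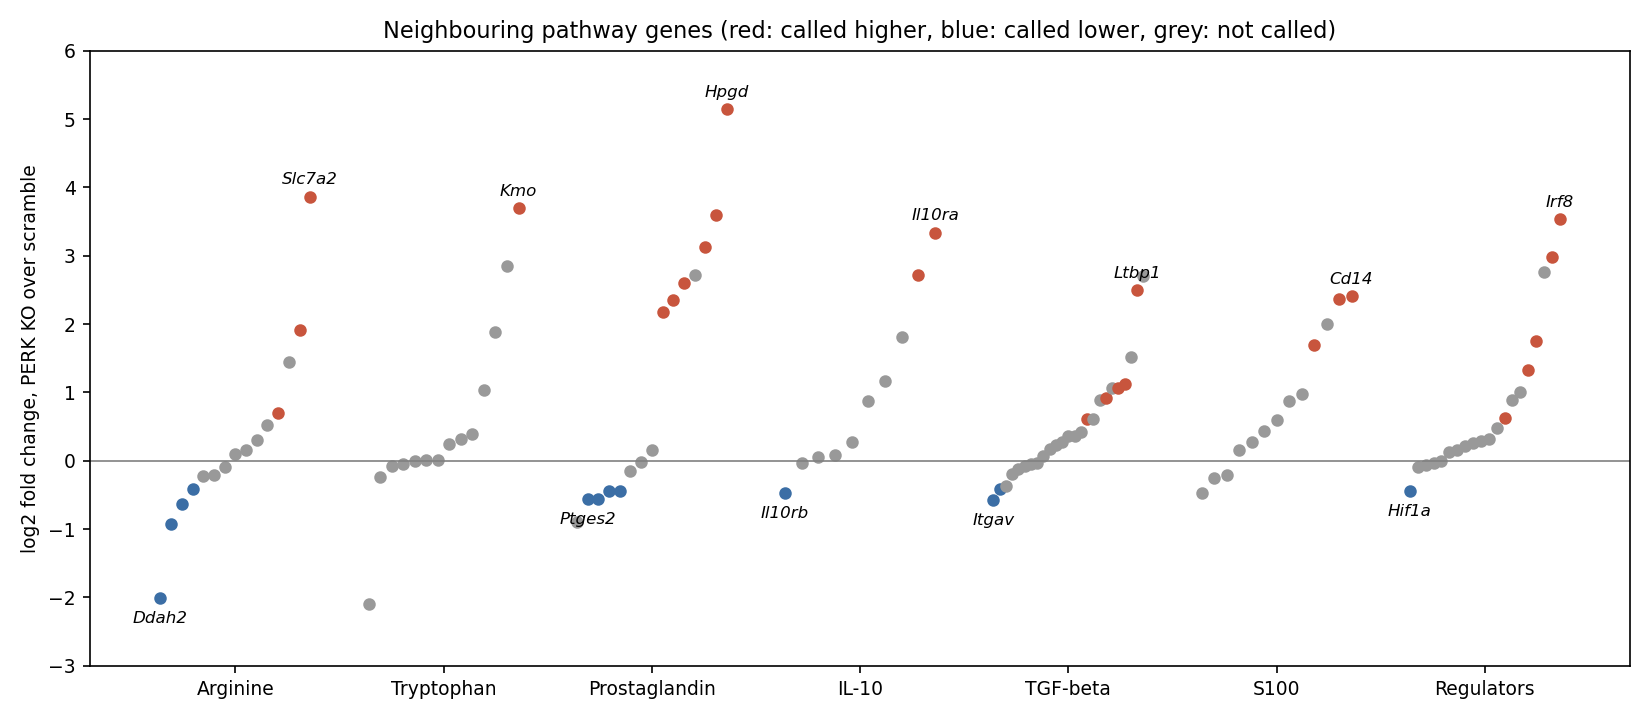
Log2 fold change (vertical axis, PERK KO over scramble) of every tested gene with a count in both groups, by list along the horizontal axis and sorted within it. Red points were called higher, blue lower, grey neither, and the highest red and lowest blue of each list are named. All lists have points on both sides of 0, and the prostaglandin list has 6 red and 4 blue.

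Per kilobase of exon, Tgfb1 was the most abundant member in every library and Arg1 the next. Mean levels were 13.1 CPM per kilobase for Tgfb1 and 2.52 for Arg1 in scramble, and 19.7 and 7.43 in PERK KO libraries. The other 8 members had means per kilobase of at most 0.42 CPM in scramble (Ptgs2) and 1.82 CPM in PERK KO libraries (Ptgs2), and members next to each other in that order had overlapping ranges over libraries. Ido1, absent from the scramble counts, reached 1.45 CPM per kilobase in PERK KO. In summed CPM the 10 members made up 68.4 to 83.1 CPM in scramble and 105 to 172 CPM in PERK KO libraries. Tgfb1 was 80.8 to 93.3% of that sum in scramble and 66.4 to 75.7% in PERK KO libraries.

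The members did not all peak in the same library. PERK KO library 4 was the highest of its group for 6 members, Nos2, Il10, Tgfb1, Ptgs2, S100a8 and Il4i1, and the lowest for Arg1. PERK KO library 3 was the highest for Arg1, Arg2 and S100a9, and PERK KO library 2 for Ido1. Among scramble libraries, library 4 was the lowest for 6 of the 9 members with a count there, Arg1, Arg2, Nos2, Tgfb1, Ptgs2 and Il4i1, and the highest for S100a8. The mean log2 CPM of 12 myeloid markers was likewise highest in PERK KO library 4, at 6.25, and lowest in scramble library 4, at 2.37.

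In such bulk libraries, fewer cells of a type and less RNA per cell cannot be told apart. Each tested member was also set against the myeloid markers of its own library. This describes a ratio and does not tell them apart either. The mean log2 CPM of those 12 markers was 2.13 higher in PERK KO than in scramble libraries, and the groups did not overlap (exact two-sided permutation test, p = 0.0286, the smallest that 70 assignments allow). Sirpa, called lower, is among the 12, so this mean understates the rise of the other markers. Against those others alone, each relative difference would be lower. Relative to it, Arg1 differed by -0.40 (exact permutation p = 0.514), Ptgs2 by -0.14 (0.8) and Il4i1 by -0.10 (0.914), all with overlapping groups.
Nos2 and Tgfb1 were lower relative to the markers in every PERK KO library. Nos2 stood at -2.77, -3.09, -2.69 and -2.27 in scramble libraries 2 to 5 and at -4.81, -4.25, -3.28 and -4.03 in PERK KO libraries 1 to 4, a difference of -1.39. Tgfb1 stood at 2.4, 2.61, 3.63 and 2.41 in scramble and at 1.53, 0.93, 1.63 and 0.71 in PERK KO libraries, a difference of -1.56. Ido1 was higher in every PERK KO library, by 3.61 with a prior count of 2 and by 5.58 with 0.5, a size that the prior count sets because scramble had no count.
These 3 had an exact permutation p of 0.0286 each, the smallest possible, and 0.0762 after adjustment over the 8 members. At least 5 of the 8 would have to reach that smallest p for any to pass 0.05, so missing the threshold says nothing for or against these differences. Arg2 (-1.11, exact permutation p = 0.6) and S100a8 (-0.78, p = 0.571) had overlapping groups. With 15 pan-leukocyte markers in place of the myeloid ones, Nos2 differed by -1.64, Tgfb1 by -1.81 and Ido1 by 3.37.

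**Figure D4:**
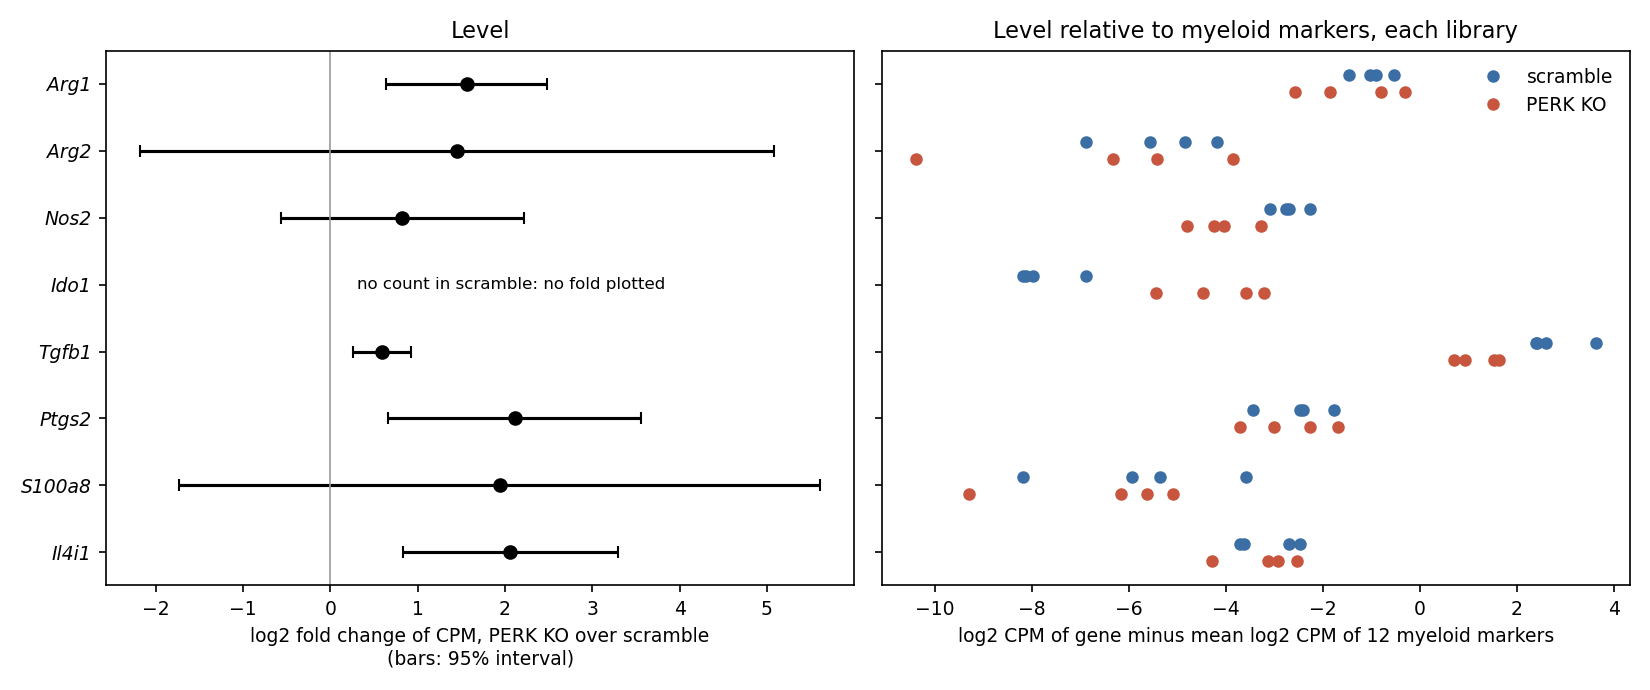
Left, log2 fold change of each tested member with its 95% interval, except Ido1, which had no count in scramble and has no fold plotted. Right, log2 CPM of the member minus the mean log2 CPM of 12 myeloid markers in each scramble (blue) and PERK KO (red) library. Arg1, Ptgs2 and Il4i1 lie above 0 on the left and overlap between groups on the right, while Tgfb1 lies above 0 on the left (0.59) and lower in PERK KO on the right (-1.56).

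Markers of some other cells were also called higher, and those of others were not called. Over all genes tested, 7.66% were called higher. Of 10 mast cell markers all were called higher, with summed levels of 23.4 to 168 CPM in scramble and 714 to 3140 CPM in PERK KO libraries. 7 of 10 dendritic cell markers were called higher (140 to 200 CPM against 474 to 1240 CPM), as were 7 of 10 monocyte markers (277 to 451 CPM against 540 to 835 CPM). 11 of 13 macrophage markers were called higher, with ratios of group means from 2.86 (Cd163) to 7.67 (Folr2). The summed macrophage level, 1000 to 1080 CPM in scramble and 970 to 2100 CPM in PERK KO libraries, was mostly Apoe, which had 949 ± 16.2 and 963 ± 373 CPM and was not called. Most of the monocyte sum was likewise Fn1, which had 314 ± 52.8 and 379 ± 67.7 CPM and was not called. Of 18 markers of simple and glandular epithelium 16 were called higher, at 8.77 to 14.8 CPM in scramble and 211 to 455 CPM in PERK KO libraries. No marker was called among 10 endothelial, 5 tested T and NK cell and 6 tested erythroid markers. Their median log2 changes were 0.376, 3.52 and -0.206. The T and NK cell markers were low, at 1.41 to 2.85 CPM in scramble and 2.75 to 35.4 CPM in PERK KO libraries. Missing calls therefore do not show that they were unchanged. Called higher were 1 of 10 fibroblast and mural, 4 of 8 tested blood progenitor, 3 of 6 tested B and plasma cell and 1 of 2 tested keratinocyte markers. The part of any of these cells in the levels of the members was not tested.

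The genes most like each member were those with the smallest root mean square difference in log2 CPM over the 8 libraries, each gene centred on its own mean, among tested genes whose mean log2 CPM was 1 or more. Tgfb1 was closest to Grn, the lysosomal growth factor progranulin, at 0.0715, and to Msrb1 at 0.0735. Il4i1 was closest to Gata2, a factor of mast cells and blood progenitors, at 0.282, and to H2-DMa, an MHC class II chaperone, at 0.309. Arg1 was closest to Notch1 (0.367) and to Cd163, a macrophage scavenger receptor (0.37).
Ptgs2 was closest to Cd84 (0.303) and Rnf150 (0.319), and Nos2 to Tns1 (0.266) and Slc31a2 (0.301). Ido1 had only distant neighbours: Lcn2, the epithelial and neutrophil lipocalin, at 0.679 and Dmbt1, a mucosal glycoprotein, at 0.683. Since scramble had no count of Ido1, the prior count sets part of these distances. Lcn2 rose from 1.07 to 57 CPM and Dmbt1 from 1.35 to 39 CPM on average (edgeR adjusted p = 5.31e-05 and 1.71e-05). Both were picked for their likeness to Ido1 over these libraries, so these p-values are not separate support. Arg2 and S100a8, with their libraries at 0, had none closer than 0.868 (Notch3) and 1.1 (Gnaz).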

How the data were processed

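Per the submitters' processing notes, which name no roles, the tools include STAR 2.5.3a and bcl2fastq, also HTSeq 0.6.1, DESeq2 1.30.1 and build mm10; their settings, strand included, are not given in the sources used here. The deposited raw table holds counts per gene and library, from strand-specific libraries of 100 ng RNA, read as pairs of 105 bases per the labels. The deposited normalized signal (counts over 1 factor per library) served only as a check. Identifiers matched GENCODE M21 (55450 of 55450).

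Genes were filtered with filterByExpr, scaled with TMM factors (0.863 to 1.03) and tested in edgeR 4.0.16 (R 4.3.3; robust quasi-likelihood, no covariate) at a Benjamini-Hochberg adjusted p of 0.05 over 16662 genes. The biological coefficient of variation was 46.3%. Log2 CPM used a prior count of 2; ± is the SD of 4 libraries; intervals are at 95%. Exact permutation tests used all 70 assignments. Members and lists were chosen with earlier results of these data known. Named genes were the members, Eif2ak3, Kit, up to 4 called genes of smallest p per pathway list and the 2 genes most like each tested member; genes overlapping a member were named for their position, and Sirpa, Apoe, Fn1, other single markers and genes without a count, like those marked in the text, after their values were seen. Alternatives were DESeq2 1.42.0, limma 3.58.1 voom, other scalings and filters, leaving out each library and a replicate block. On simulated data for this comparison (200 changed among 15679 genes), 30, 56, 74 and 82% of those changed 1.5-, 2-, 4- and 8-fold were recovered. The changed genes were drawn only from those above a set mean CPM. Arg2, Il10, S100a8 and S100a9 lie below it, so these shares do not cover them.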

Additional observations from a re-analysis of the deposited data

Results flagged for a closer look

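The Il4i1 level of scramble library 5, 2.17 CPM, stood apart from the other 3 scramble libraries at 0.758 to 0.995 CPM. The gap to its nearest neighbour was 0.831 of the range of the group, above the critical value of Dixon's test for 4 samples. 19 sets of 4 libraries were examined in this way, and chance flags about 1 set in 20. Without scramble library 5, Il4i1 stayed called higher in PERK KO libraries.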

How the results depend on the processing

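The same 5 members were called with DESeq2, limma-voom, RLE, upper-quartile and total-count scaling, without a filter, with a stricter filter and with a fit that is not robust. The stricter filter dropped Arg2, Il10, S100a8 and S100a9, which then had no value. Calls over all genes were 1277 higher and 1022 lower (55.5% higher), and 1430 and 653 (68.7%) with upper-quartile factors.

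Leaving out each library gave 1078 to 2616 calls, against 2299 with all. Log2 changes then ran from 1.264 to 1.85 for Arg1, 1.598 to 2.615 for Ptgs2, 1.636 to 2.522 for Il4i1 and -0.2425 to 2.31 for Il10. Relative to the myeloid markers they ran from -0.756 to 0.00256 for Arg1, -1.99 to 0.174 for Arg2, -0.472 to 0.203 for Ptgs2, -1.58 to 0.139 for S100a8 and -0.328 to 0.254 for Il4i1. The number of members called ran from 2 (without scramble library 3) to 5.

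Deviations from the group mean correlated at -0.0091, 0.098 and -0.2 between libraries that shared a number. Pairs with different numbers ran from -0.094 to 0.14. So few pairs cannot show whether a shared number marks a batch or a pairing, and the labels name none. A replicate block fitted every library, but only numbers 2, 3 and 4 (6 libraries), which have both groups, then bear on the group difference. Calls fell to 208 and each of the 5 missed the threshold: Arg1 1.886, Ido1 9.774, Tgfb1 0.6528, Ptgs2 2.321 and Il4i1 2.515 (edgeR adjusted p = 0.0733, 0.0746, 0.0866, 0.128 and 0.096). That fit estimates more terms, and its group difference rests on fewer libraries. The paired means relative to the markers were 0.271 for S100a8 and 0.0197 for Il4i1. Arg2, Il10, S100a8 and S100a9 had libraries without a count in both groups, and these were not always the shallowest.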
